A study of Mus musculus with 8 samples.

Results

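This comparison concerns the first 4 hr of vitamin C (vitC). RNA from mouse embryonic stem cells (ESCs) that had spent 4 hr in 2i with vitC was compared with RNA from cells kept for 4 hr in 2i alone. The members are the 2 libraries whose labels give the 4 hr time point, of 8 in the series, with 1 library a side. Both come from E14, an ESC line of strain 129/Ola grown without feeder cells, and the treatment of each library was taken from its label. In both groups serum medium was exchanged for serum-free NDiff 227 medium with LIF, the MEK inhibitor PD0325901, and the GSK3 inhibitor CHIR99021, and the vitC group also received 17 µM L-ascorbic acid. By these descriptions the groups differ in the added vitC, on top of a change of medium that both had undergone. With 1 library a side, vitC cannot be told apart from other differences between the 2 cultures or library preparations. The remaining 6 libraries were taken at 16, 24, and 32 hr with and without vitC.

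VitC is a reducing cofactor of the dioxygenases that use iron and 2-oxoglutarate. These enzymes include the TET proteins, which oxidize 5-methylcytosine in DNA, the JmjC histone demethylases, the collagen prolyl hydroxylases, and the EGLN prolyl hydroxylases, which mark the hypoxia-inducible factor HIF1α for degradation. In ESCs vitC is best known for raising TET activity and for promoting DNA demethylation in 2i.

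The libraries held 17403697 counts in 2i and 13157570 with vitC, and both ran on lane 8 of the sequencer. Counts were put on the scale of CPM, the count of a gene relative to the total of its library, with TMM factors, which correct for differences in composition between libraries. A gene was kept when its mean over the 2 libraries was at least 2 CPM, and 12683 genes were kept. With 1 library a side there is no replicate spread and no test, so each ratio of vitC to 2i is given on the log2 scale with an exact 95% counting interval. A gene was called higher or lower when it differed at least 1.5-fold and its interval did not include a ratio of 1. These intervals cover counting error only. For the 4527 genes whose mean reached 50 CPM, the log2 ratios had an SD of 0.20, whereas the median counting error was 0.051, so that genes differed between the libraries by more than counting predicts. A ratio therefore compares these libraries, and how far it would recur in another culture is unknown.

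Most genes had similar levels in both libraries. The median log2 ratio of all genes was 0.01, with quartiles at -0.18 and 0.18 and the 5th and 95th percentiles at -0.60 and 0.54. With vitC, 493 genes were called higher (3.89%) and 638 lower (5.03%), of which 130 and 145 differed at least 2-fold. When the libraries were scaled by their totals instead, 583 genes were called higher and 528 lower, so the balance between the directions depends on the scaling. Calls were concentrated among genes with low counts, and only 47 of the 4527 genes at 50 CPM or above (1.04%) were called. The shares over all genes are the background for the counts of called members given below. They are not matched for level. In a list of genes with low counts, a larger share of calls cannot be told apart from an effect of level.

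**Figure D1:**
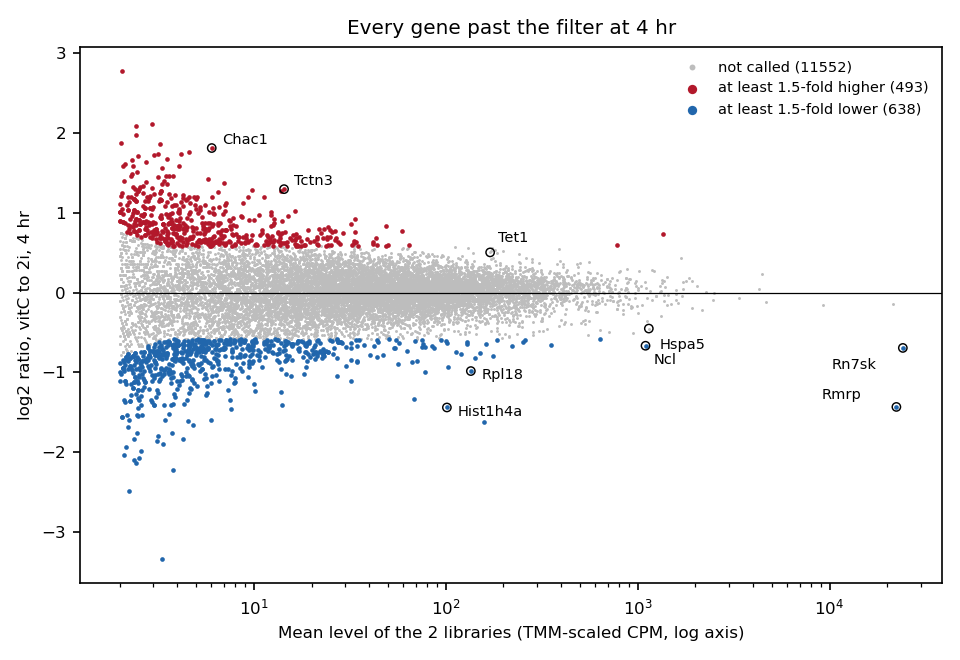
Each point is 1 of the 12683 genes past the filter, with its mean level in the 2 libraries on the x axis (TMM-scaled CPM, log axis) and the log2 ratio of vitC to 2i at 4 hr on the y axis. The 493 genes called higher are red, the 638 called lower are blue, and the spread of the ratios narrows as the level rises, except for the abundant noncoding RNAs Rmrp and Rn7sk at the far right.

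The largest differences in reads were in noncoding RNAs made by RNA polymerase III, which were named after their values were seen. Rmrp, the RNA component of the RNase MRP complex that processes ribosomal RNA, took 559711 counts in 2i and 161498 with vitC, or 3.22% and 1.23% of all counts. Its log2 ratio was -1.43. Rn7sk, which holds the elongation factor P-TEFb inactive, took 512131 and 246785 counts, with a log2 ratio of -0.69. Rpph1, the RNA of RNase P, differed little, with 387245 and 272590 counts and a log2 ratio of -0.15. The 10 most abundant genes together took 11.5% of the counts in 2i and 8.29% with vitC.

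GC content and gene length also moved with the ratios. Among the 12439 genes with both values, the Spearman correlation of the log2 ratio was -0.20 with GC content and 0.14 with merged exon length, across genes that share the same 2 libraries. The 3106 genes with the highest GC content had a median log2 ratio of -0.08, and 7.89% of them were called lower, whereas the 3112 genes with the lowest GC content had a median of 0.07 and 3.25% called lower. Among the 3110 shortest genes 9.13% were called lower, and among the 3110 longest 2.22%. List medians are therefore given below also after a correction for GC content and length, named the corrected median. The part of the uncorrected pattern that belongs to library preparation was not tested.

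The cells of both libraries carried ESC markers. The 10 ESC markers summed to 1957 CPM in 2i and 2002 CPM with vitC, and none was at 0 in either library. Markers of other cell types were lower in sum, and each sum was somewhat lower with vitC. Their part in the other results was not tested. The 10 fibroblast markers summed to 137 and 121 CPM, with 0 and 1 markers at 0. The 12 primitive endoderm markers summed to 17.6 and 15.0 CPM (2 at 0 in each), the 10 trophoblast markers to 108 and 101 CPM (1 at 0 in each), and the 10 mesoderm and endoderm markers to 25.9 and 21.1 CPM (1 and 0 at 0). Of 10 neural markers 9 were matched, and these summed to 479 and 422 CPM, with 1 and 2 at 0. Thy1 was called lower (6.52 and 2.84 CPM), as was Krt7 of the trophoblast list (21.1 and 10.2 CPM). In bulk RNA fewer cells of a type and less RNA per cell cannot be told apart.

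Genes that carry or recycle vitC were on one side of the background. Of 10 listed genes 8 passed the filter, and all 8 were above 0, with a median log2 ratio of 0.16 (corrected 0.18), although none was called. Slc23a2, the sodium-dependent transporter that brings ascorbate into cells, had 58.9 CPM in 2i and 76.3 CPM with vitC, a log2 ratio of 0.37 (0.25 to 0.50). Gsto1, a glutathione transferase that can reduce dehydroascorbate, had 56.2 and 74.9 CPM, a log2 ratio of 0.42 (0.29 to 0.54). The glutaredoxin Glrx had 9.89 and 13.7 CPM, a log2 ratio of 0.47 (0.16 to 0.77). Slc2a1, which carries glucose and oxidized vitC, was close to the background, with 343 and 360.0 CPM and a log2 ratio of 0.07 (0.02 to 0.13). The second transporter, Slc23a1, did not pass the filter, with 11 and 10 counts. At 16, 24, and 32 hr the list medians were -0.24, -0.03, and -0.16.

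The enzymes that use vitC differed among themselves. Tet1 had 141 CPM in 2i and 199.9 CPM with vitC, a log2 ratio of 0.50 (0.42 to 0.58), which is below the 1.5-fold limit. Tet3 had 8.96 and 11.9 CPM, a log2 ratio of 0.41 (0.09 to 0.74), and Tet2 had 123 and 132 CPM, a log2 ratio of 0.10 (0.01 to 0.20). All 3 TET genes were thus above 0, by amounts under 1.5-fold. In the later pairs the Tet1 ratios were 0.66, 0.92, and 0.29 at 16, 24, and 32 hr, and those of Tet3 were 1.52, 1.00, and 0.71. Of the AlkB family, which repairs or demethylates nucleic acids and includes the RNA demethylase Fto, only Alkbh7 was called. It was lower, with 22.9 and 14.8 CPM and a log2 ratio of -0.63 (-0.89 to -0.38), but it was not called after the correction for GC content and length (-0.50), which left no called gene in this list. The 12 TET and AlkB genes had a median of 0.15 (corrected 0.17).

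The histone demethylases of the JmjC family showed no shift. The 19 that passed had a median of 0.02, with 12 above 0, 7 below, and none called. Kdm3a, which removes methyl groups from H3K9, had 253 and 219.6 CPM, a log2 ratio of -0.20 (-0.27 to -0.14). Among 21 HIF and collagen hydroxylases the median was -0.09, and 2 were called, both lower. P3h3, a collagen prolyl 3-hydroxylase, had 7.91 and 4.85 CPM, and Ogfod3 had 6.81 and 4.10 CPM, with log2 ratios of -0.71 and -0.73. Ogfod3 shares 17.0% of its exon bases with another gene. The 3 EGLN oxygen sensors were all below 0. Egln1 had 34.4 and 25.2 CPM, a log2 ratio of -0.45 (-0.65 to -0.25), Egln2 had a log2 ratio of -0.20, and that of Egln3 (51 and 38 counts) was -0.07, with an interval that includes 0. P4ha1, a collagen prolyl 4-hydroxylase, had 41.8 and 40.3 CPM, and its log2 ratio of -0.05 (-0.22 to 0.11) cannot be told from 0 at this depth.

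HIF1 target genes gave a mixed picture at 4 hr. Hif1a itself had 251 and 231 CPM, a log2 ratio of -0.12 (-0.19 to -0.05). Of the 20 glycolytic targets 16 were below 0, although their summed level was 5916 CPM in 2i and 5986 CPM with vitC. The median was only -0.13 (corrected -0.11), and 1 gene (5.00%) was called lower, beside 5.03% of all genes. That gene was Aldoc, an aldolase isoform, with 10.4 CPM in 2i and 5.97 CPM with vitC. Pgk1 (-0.37), Pfkl (-0.36), Tpi1 (-0.27), and Ldha (-0.25) were lower by less than 1.5-fold, and their intervals all lay below 0. Pkm (0.16), Slc2a3 (0.15), and Slc2a1 (0.07) lay above 0. Pgk1, Gapdh, Ldha, and other glycolytic genes have many processed pseudogenes, with which 50-base reads can be shared, so their levels are uncertain.

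The 33 other HIF1 targets, which include Egln1, Egln3, P4ha1, and Kdm3a named above, had a median of -0.05, with 16 above and 17 below 0. Of these, 5 (15.2%) were called lower and 2 (6.06%) higher. Ankrd37, a small ankyrin repeat protein induced by hypoxia, had 115 counts in 2i and 41 with vitC, a log2 ratio of -1.13 (-1.68 to -0.60). Of its exon bases 26.4% are shared with another gene, and the library kit does not mark strand, so some of its reads may belong to the neighbour. Vegfa, the main angiogenic growth factor, had 32.5 and 20.1 CPM, a log2 ratio of -0.69 (-0.91 to -0.48). Narf had 46.0 and 29.2 CPM, a log2 ratio of -0.65 (-0.83 to -0.48). Ddit4, an inhibitor of mTORC1, had 157 and 102 CPM, a log2 ratio of -0.62 (-0.71 to -0.52). Lox, which crosslinks collagen, had 97 and 43 counts and a log2 ratio of -0.81. Ddit4 was not called with library totals (-0.57) or after the correction (-0.50). On the other side stood Ppp1r3c, which directs protein phosphatase 1 to glycogen, with 54 and 90 counts and a log2 ratio of 1.10 (0.59 to 1.61), and Tmem45a, with 48 and 65 counts and a log2 ratio of 0.80.

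The promoters of Ankrd37 and Ddit4 are shown because both genes were called lower at 4 hr and their windows hold the core of the hypoxia response element to which HIF1 binds. The sequences are the 250 bases before the RefSeq transcription start in GRCm38.p6, read 5′ to 3′ on the gene's strand. Capitals mark ACGTG on either strand.
Ankrd37 (chr8:45999851-46000100, minus strand): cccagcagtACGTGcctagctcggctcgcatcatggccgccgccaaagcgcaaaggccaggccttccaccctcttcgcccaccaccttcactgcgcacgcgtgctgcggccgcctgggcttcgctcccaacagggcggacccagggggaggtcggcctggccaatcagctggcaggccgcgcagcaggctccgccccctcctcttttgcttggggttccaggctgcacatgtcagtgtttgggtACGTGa
Ddit4 (chr10:59951771-59952020, minus strand): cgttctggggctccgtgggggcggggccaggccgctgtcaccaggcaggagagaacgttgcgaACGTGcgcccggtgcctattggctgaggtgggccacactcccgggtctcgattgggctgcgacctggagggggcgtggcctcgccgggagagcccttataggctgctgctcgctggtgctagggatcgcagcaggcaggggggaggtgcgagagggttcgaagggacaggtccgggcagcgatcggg
Of the 53 HIF1 targets past the filter 43 had a promoter in RefSeq, and 24 of these (55.8%) held ACGTG, beside 18.5% of all 27025 genes with a promoter. Those with a match lay on both sides of 0. Ppp1r3c, which was called higher, held 3 matches, more than either gene shown, and Bnip3, a mitophagy receptor with a log2 ratio of 0.34, held 2. The 24 genes with a match had a median log2 ratio of -0.13 at 4 hr and the 19 without one had -0.08. The match describes these letters in the window and not a bound site. The share with a match follows from how the list was composed and does not describe the 2 libraries. The difference between the medians was not tested. The core ACGTG is also part of the E-box searched further on.

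HIF1 targets had lower medians in the 16 and 24 hr pairs. From 4 to 32 hr, the 4 medians of the glycolytic targets were -0.13, -0.67, -0.65, and -0.32, and those of the other 33 targets were -0.05, -0.53, -0.20, and 0.01. Slc16a3, which exports lactate, had 247 and 217 CPM at 4 hr, a log2 ratio of -0.18 (-0.25 to -0.12), and its later ratios were -1.82, -2.01, and -1.35. Pdk1, which limits the entry of pyruvate into mitochondria, had a log2 ratio of 0.16 (0.05 to 0.27) at 4 hr and later ratios of -1.51, -1.30, and -0.89. Narf was called lower at all 4 times, with later ratios of -1.48, -1.31, and -0.90. The later pairs share no library with the 4 hr pair, but they are other time points and not repeats of it, and the 16 and 32 hr libraries ran on another lane. They also differ in reads on Lars2, which took 0.0035% and 0.0030% of the counts in 2i and with vitC at 4 hr, but 0.016% and 1.49% in the 16 hr pair, 0.921% and 2.01% in the 24 hr pair, and 0.141% and 0.792% in the last pair. Whether this difference affected the later ratios was not tested.

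**Figure D2:**
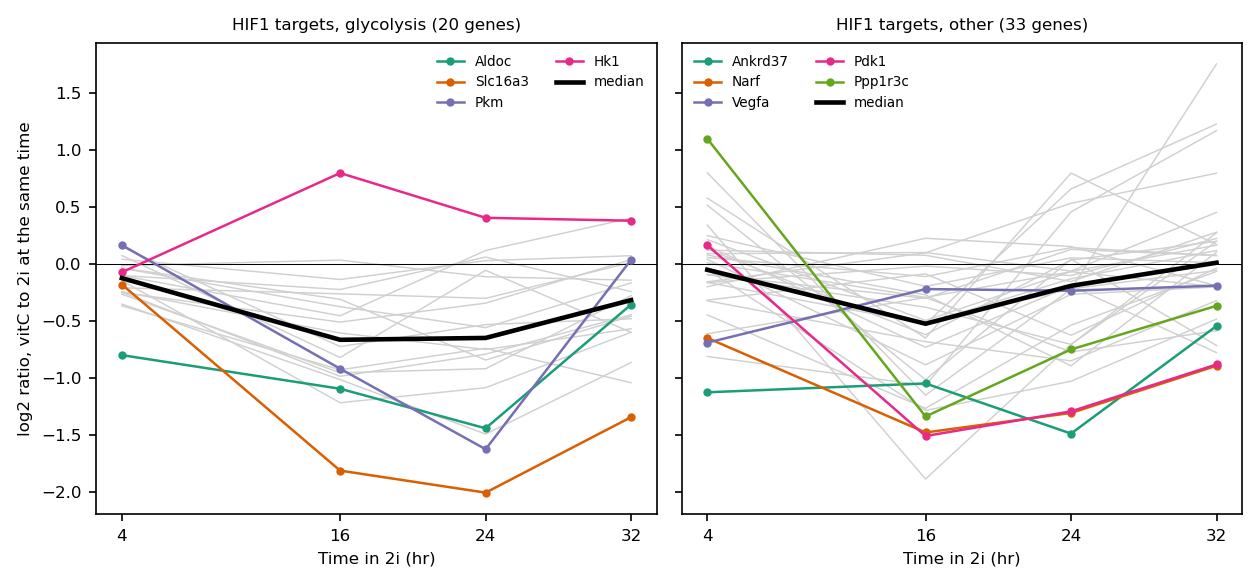
Log2 ratios of vitC to 2i (y axis) for the 20 glycolytic and the 33 other HIF1 targets at 4, 16, 24, and 32 hr in 2i (x axis), with 1 grey line a gene, named genes in colour, and the median in black. The medians start at -0.13 and -0.05 at 4 hr and are lowest at 16 hr, at -0.67 and -0.53, while Ppp1r3c starts above 0 and lies below it later.

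Targets of BMP signalling were the list with the lowest median. BMP ligands act through SMAD1 and SMAD5 to induce the ID proteins, which block differentiation factors, together with feedback inhibitors. Of 18 listed genes 13 passed, and 12 were below 0, with a median of -0.46 (corrected -0.42). Of the 13, 4 (30.8%) were called lower and 1 (7.69%) higher. Id3 had 449 counts in 2i and 208 with vitC, or 26.1 and 15.5 CPM, a log2 ratio of -0.75 with an interval wholly below -0.5. Id2 had 28.0 and 20.4 CPM, a log2 ratio of -0.46 (-0.68 to -0.24), and Id1 had 910 and 618 counts, a log2 ratio of -0.20 (-0.35 to -0.05). The inhibitory SMAD gene Smad7 had 21.3 and 13.1 CPM, a log2 ratio of -0.70 (-0.97 to -0.43). The homeobox gene Msx1 (47 and 17 counts) and Hey1 (73 and 37 counts) were called lower on few reads, at -1.11 and -0.62. Bambi, a decoy receptor that dampens BMP and TGFβ signals, was the only member above 0, with 14.1 and 21.3 CPM and a log2 ratio of 0.59 (0.34 to 0.84). Hey1 was not called with library totals (-0.58) or with a 99% interval. With the 2i library thinned to the depth of vitC, Hey1 was at -0.23 and not called. Bambi was not called after the correction (0.54), with factors from the 2 libraries alone (0.58), or with upper quartile factors (0.58). In the later pairs 9, 6, and 10 of the 13 genes were below 0, with medians of -0.16, 0.14, and -0.30.

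Neighbouring signalling lists had medians near 0 with a few called members. Of 16 Nodal and TGFβ targets 3 (18.8%) were called lower and none higher, and the median was 0.02. Lefty1, a secreted Nodal inhibitor, had 123 and 79.9 CPM, a log2 ratio of -0.63 (-0.74 to -0.52), and Lefty2 had 23.0 and 14.6 CPM, a log2 ratio of -0.66 (-0.92 to -0.41). Lefty1 was not called with library totals (-0.58) or after the correction (-0.51). The third was Smad7, which is also a BMP target. Nodal itself had 163 and 176 CPM, and its coreceptor Tdgf1 had 141 and 207 CPM, a log2 ratio of 0.55 (0.47 to 0.63) that falls short of 1.5-fold. Both Lefty genes were below 0 at every later time, Lefty1 at -1.22, -0.42, and -0.50 and Lefty2 at -1.87, -0.76, and -0.34. Among 19 FGF-ERK targets the median was 0.04, and 2 (10.5%) were called lower. These were Spry1 (6.34 and 3.88 CPM, log2 ratio -0.71, or -0.55 and no call with the 2i library thinned to the depth of vitC) and Spry2 (23.7 and 15.2 CPM, log2 ratio -0.64), which both restrain receptor tyrosine kinase signals. Spry1 shares 24.4% of its exon bases with another gene. Dusp6, an ERK phosphatase, had 6.87 and 7.09 CPM, with an interval of the log2 ratio from -0.36 to 0.45.

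Retinoic acid genes had a median of -0.15 (corrected -0.17) over 13 genes, with 3 called lower (23.1%) and none higher. Among these, Aldh1a2, which makes retinoic acid, had 165 and 83 counts, and the retinaldehyde reductase gene Dhrs3 had 6.92 and 4.25 CPM. Their log2 ratios were -0.63 and -0.70. The 21 Wnt targets had a median of 0.00, with 1 called higher (Bambi) and 2 lower, Cdx1 at -0.94 and the Wnt inhibitor Dkk1 at -0.70. The 16 LIF-STAT3 targets had a median of 0.07 and no called gene. Among 22 immediate early genes 1 was called in each direction, Zfp36 higher on 31 and 48 counts and Ier2 lower with 66.2 and 43.9 CPM, a call lost with library totals (-0.55) and after the correction (-0.45). Acta2, a smooth muscle actin, was the only one called of 26 SRF and YAP targets, with 55.7 and 31.8 CPM and a log2 ratio of -0.81. Relb was the only one called of 15 NF-κB and interferon genes, with 25.1 and 15.3 CPM and a log2 ratio of -0.72.

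Most chaperones of the endoplasmic reticulum (ER) had ratios below 0, none by as much as the call requires. These proteins fold secreted and membrane proteins and are induced when unfolded protein builds up. All 23 listed genes passed, 19 were below 0, and none was called. Their median was -0.22 (corrected -0.15), and their summed level was 8071 CPM in 2i and 6761 CPM with vitC. Hsp90b1 (GRP94) had 1108 and 778 CPM, a log2 ratio of -0.51 (-0.55 to -0.48). Hspa5 (BiP), the main ER chaperone, had 1322 and 967 CPM, a log2 ratio of -0.45 (-0.48 to -0.42). Dnajc3, a cochaperone of BiP, had 114 and 82.0 CPM and Creld2 had 84.8 and 61.6 CPM, with log2 ratios of -0.47 and -0.46. The disulfide isomerase genes Pdia3, Pdia4, and Pdia6 had log2 ratios of -0.33, -0.32, and -0.29. Of the 4 genes above 0, Dnajb9 (0.38) and the stress sensor Atf6 (0.24) had intervals above 0. In the later pairs the list medians were -0.02, -0.04, and 0.01, close to the medians of all genes. Leaving aside Hyou1 and Herpud1, whose intervals include 0, the interval of each member lay on one side of 0.

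The promoters of the 4 ER chaperone genes with the lowest log2 ratios are shown, since all 4 hold the ER stress response element, through which ATF6 and NF-Y are known to act. The windows are again the 250 bases before the RefSeq start in GRCm38.p6, on the gene's strand. Capitals mark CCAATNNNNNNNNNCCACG on either strand, where N is any base.
Hsp90b1 (chr10:86705445-86705694, minus strand): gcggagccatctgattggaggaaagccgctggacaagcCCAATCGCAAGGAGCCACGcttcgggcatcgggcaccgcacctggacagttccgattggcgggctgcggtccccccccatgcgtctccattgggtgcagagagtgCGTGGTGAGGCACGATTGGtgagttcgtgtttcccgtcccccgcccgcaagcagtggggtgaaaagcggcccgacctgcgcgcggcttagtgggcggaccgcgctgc
Dnajc3 (chr14:118937682-118937931, plus strand): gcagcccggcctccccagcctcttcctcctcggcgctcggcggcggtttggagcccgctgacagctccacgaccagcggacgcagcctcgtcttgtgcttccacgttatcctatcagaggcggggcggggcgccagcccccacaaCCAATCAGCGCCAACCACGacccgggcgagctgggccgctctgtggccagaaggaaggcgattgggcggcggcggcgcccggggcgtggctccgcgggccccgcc
Creld2 (chr15:88819396-88819645, plus strand): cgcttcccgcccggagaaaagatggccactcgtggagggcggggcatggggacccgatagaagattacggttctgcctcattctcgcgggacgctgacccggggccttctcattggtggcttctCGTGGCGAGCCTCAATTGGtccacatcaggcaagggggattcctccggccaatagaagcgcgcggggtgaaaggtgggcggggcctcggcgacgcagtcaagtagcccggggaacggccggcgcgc
Hspa5 (chr2:34771840-34772089, plus strand): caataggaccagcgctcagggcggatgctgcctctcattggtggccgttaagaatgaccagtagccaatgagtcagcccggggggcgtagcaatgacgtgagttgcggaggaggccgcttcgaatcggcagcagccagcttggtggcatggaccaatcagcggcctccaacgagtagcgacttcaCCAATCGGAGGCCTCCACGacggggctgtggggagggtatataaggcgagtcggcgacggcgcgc
Of the 23 genes 20 had a promoter in RefSeq, and 8 of these (40.0%) held the element, beside 0.130% of all genes. This share, too, follows from how the list was composed and does not describe the 2 libraries. The 8 genes had a median log2 ratio of -0.40 and the 12 others -0.20, a difference that was not tested. The genes with a match were Calr, Canx, Creld2, Dnajc3, Hsp90b1, Hspa5, Pdia6, and Syvn1. Calr (-0.15) and Canx (-0.14) hold the element as well and had ratios nearer to 0.

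Cytosolic heat shock genes leaned the same way. Of 18 genes 16 were below 0, with a median of -0.14 (corrected -0.18), and 4 (22.2%) were called lower and none higher. The inducible HSP70 genes Hspa1a and Hspa1b had 9.83 and 27.1 CPM in 2i and 5.60 and 15.5 CPM with vitC, with log2 ratios of -0.81 and -0.80. They are nearly identical copies, so reads may be split between them. Hsph1, a nucleotide exchange factor for HSP70, had 222 and 147 CPM, a log2 ratio of -0.59 (-0.67 to -0.51), and the small heat shock gene Hspb1 had 60.9 and 40.5 CPM, a log2 ratio of -0.59 (-0.74 to -0.44). With library totals Hsph1 (-0.55) and Hspb1 (-0.54) were no longer called, which left 2 of the 18 genes, and Hspb1 was not called after the correction either (-0.42). The constitutive HSP70 gene Hspa8 stood on the other side, with 423 and 541 CPM and a log2 ratio of 0.36 (0.31 to 0.41). In the later pairs the medians were 0.02, -0.04, and -0.02.

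Genes of iron handling had the highest median among the lists with at least 10 genes. Of 19 genes 14 were above 0, with a median of 0.27 (corrected 0.26), and 4 (21.1%) were called higher and none lower. Slc39a14, which imports zinc and iron, had 303 counts in 2i and 418 with vitC, or 17.6 and 31.2 CPM, a log2 ratio of 0.82 (0.61 to 1.04). Slc25a37 (mitoferrin), which brings iron into mitochondria, had 9.02 and 14.2 CPM, a log2 ratio of 0.65 (0.34 to 0.97), and the iron-sulfur scaffold Iscu had 14.5 and 22.1 CPM, a log2 ratio of 0.60 (0.35 to 0.85), or 0.56 and no call with the 2i library thinned. Ncoa4, which delivers ferritin to lysosomes, was called on only 34 and 59 counts, with a log2 ratio of 1.15. The iron sensor genes Ireb2 (163 and 233 CPM, log2 ratio 0.52) and Fbxl5 (150.3 and 203 CPM, log2 ratio 0.43) were above 0 with narrow intervals, as was the iron chaperone Pcbp2 (201 and 281 CPM, log2 ratio 0.48). The transferrin receptor Tfrc (536 and 478 CPM, log2 ratio -0.17) and the ferritin gene Fth1 (128 and 129 CPM, log2 ratio 0.01) were not among the higher genes. The later medians were -0.11, 0.02, and 0.06, and Slc39a14 had later ratios of -0.97, -0.35, and -0.37.

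**Figure D3:**
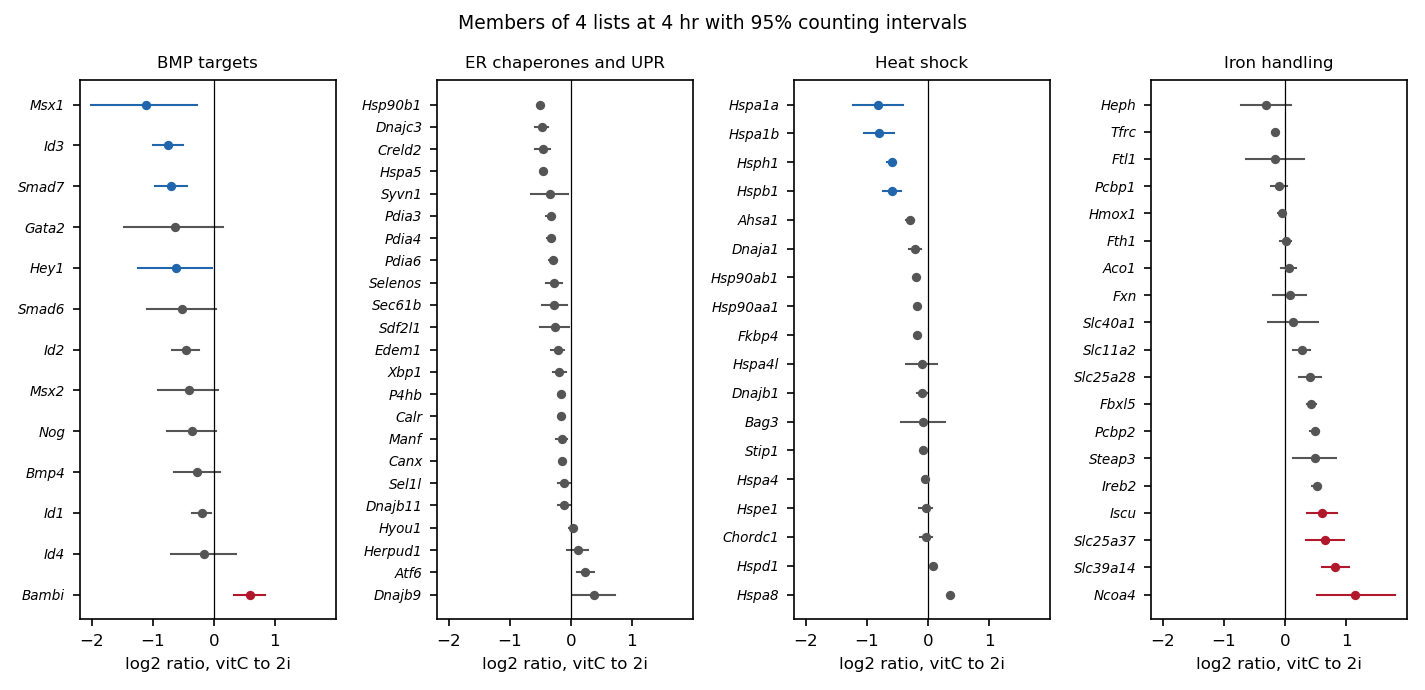
Log2 ratio of vitC to 2i at 4 hr (x axis) for the members of the BMP, ER chaperone, heat shock, and iron lists (y axis), with exact 95% counting intervals as bars, blue for genes called lower, red for genes called higher, and grey for the rest. In the BMP list 12 of 13 genes lie below 0, and in the ER chaperone list 19 of 23 do, with short bars, whereas 14 of the 19 iron genes lie above 0.

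Circadian clock genes were the other list of at least 10 genes with a median above 0.2, with a median of 0.21 (corrected 0.18) over 12 genes. Of these, 3 (25%) were called higher, beside 3.89% of all genes, and none lower. Cry2, a repressor of the clock, had 16.7 CPM in 2i and 28.1 CPM with vitC, a log2 ratio of 0.75 (0.53 to 0.98). Per1 had 69 and 94 counts and Ciart 29 and 41 counts, with log2 ratios of 0.80 (0.34 to 1.27) and 0.86 (0.14 to 1.60). Ciart was not called with the 2i library thinned (0.73) or with a 99% interval. The activators Arntl (-0.12) and Clock (0.21) were not called. Of 11 members with a promoter in RefSeq 4 (36.4%) held the E-box CACGTG, to which the CLOCK protein and its partner bind, beside 6.86% of all genes, and the 4 with a match had a median log2 ratio of 0.53 and the 7 without one 0.04. Cry2, which was called higher, held no match, and Cry1 (0.14) and Tef (0.25) each held 1 but were not called. As with ACGTG, a match describes letters and not a bound site, and the share follows from how the list was composed. The difference between these medians was not tested. The promoter of Ciart is shown because it holds 3 matches, in capitals, in the same 250-base window of GRCm38.p6.
Ciart (chr3:95882229-95882478, minus strand): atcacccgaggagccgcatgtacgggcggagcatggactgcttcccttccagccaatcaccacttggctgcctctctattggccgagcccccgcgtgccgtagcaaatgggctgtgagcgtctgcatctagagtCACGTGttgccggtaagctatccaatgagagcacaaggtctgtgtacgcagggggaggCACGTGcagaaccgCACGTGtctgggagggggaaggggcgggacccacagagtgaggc
Per1 was above 0 in the later pairs too, at 0.63, 0.90, and 0.39, whereas Ciart lay below 0, at -0.62, -0.49, and -0.33.

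Histone genes that are expressed in S phase were lower as a group. Of 52 listed genes 43 passed, and 35 were below 0, with a median of -0.36 and 11 (25.6%) called lower. The corrected median was -0.21, since these genes are short and rich in GC, with a median length of 539 bases and a median GC content of 57.9%. Hist1h4a had 2549 counts in 2i and 732 with vitC, or 148 and 54.6 CPM, a log2 ratio of -1.44 (-1.56 to -1.32). Hist1h2be had 136 and 71.0 CPM, a log2 ratio of -0.94 (-1.05 to -0.83), and Hist1h4k had 273 and 171 CPM, a log2 ratio of -0.68 (-0.75 to -0.60). These 3 genes were called lower at all 4 times. The list medians were -0.59, -0.56, and -0.28 at the later times. Histone genes are near-identical copies without poly(A) tails, so single-gene values are uncertain.

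Genes of DNA replication and mitosis had medians near 0. The 37 replication genes had a median of 0.02 and ratios from -0.27 to 0.30, and the 37 mitosis genes had a median of 0.01, with none called in either list. Of 20 G1 cyclin and CDK inhibitor genes 4 (20.0%) were called lower and none higher, and the median was 0.07. The INK4 inhibitors Cdkn2a (11.5 and 5.82 CPM), Cdkn2b (14.1 and 9.33 CPM), and Cdkn2c (3.55 and 1.79 CPM) had log2 ratios of -0.98, -0.60, and -0.99, and E2f2 had -0.66. Cdkn2b was not called with library totals (-0.56) or after the correction (-0.49).

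Genes of protein synthesis had medians near 0. The 80 cytosolic ribosomal protein genes had a median of -0.04, with 8 called lower (10%, beside 5.03% of all genes) and 1 higher, and the higher gene was Rpl29, at 1.03 on 27 and 43 counts (0.74 and no call with the 2i library thinned). Rpl18 had 179.7 and 90.8 CPM, a log2 ratio of -0.98. This family has many processed pseudogenes, and among the 488 processed pseudogenes past the filter 9.02% were called higher and 17.4% lower, so that scatter between copies is wide here. No gene was called among 74 mitochondrial ribosomal proteins (median -0.05) and 20 tRNA synthetases (-0.02). Of 34 ribosome biogenesis genes 2 (5.88%) were called lower. Ncl, the abundant nucleolar protein nucleolin, had 23196 and 11392 counts, or 1349.8 and 850.0 CPM, a log2 ratio of -0.67 (-0.70 to -0.63), and the rRNA methyltransferase gene Fbl had 26.8 and 15.1 CPM, a log2 ratio of -0.83. Both were above 0 at 16 hr, Ncl at 0.77 and Fbl at 1.95.

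Metabolic lists showed small shifts. The 22 genes of the TCA cycle (median -0.04), 23 of cholesterol synthesis and uptake (-0.03), 13 of fatty acid synthesis (0.00), and 25 of nucleotide and one-carbon synthesis (0.03) had no called gene. Of 68 nuclear genes of oxidative phosphorylation 3 were called lower and 1 higher, with a median of -0.07. Of the 13 mitochondrially encoded genes 7 passed, with a median of 0.24, and the other 6 had no counts in either library although every cell uses them. Here mt-Nd4 was called higher (40.2 and 60.5 CPM) and mt-Nd6, which lies on the other strand, lower (67.4 and 41.5 CPM). After the correction mt-Nd4 was not called (0.51), nor with factors from the 2 libraries alone (0.58) or upper quartile factors (0.58).

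Oxidative and other stress lists were near 0. The 31 NRF2 and glutathione genes had a median of 0.01 with 1 called, Gstm1, at -0.64 (-0.56 after the correction, which is no call), and the 8 metallothionein and zinc genes had a median of 0.03 with none called. Among 28 ATF4 targets the median was 0.03, but Chac1, which degrades glutathione, had the highest ratio of all listed genes. It had 46 counts in 2i and 126 with vitC, or 2.68 and 9.40 CPM, a log2 ratio of 1.81 (1.31 to 2.33), and its later ratios were -0.33, -0.15, and -0.53. Atf4 itself (299 and 311 CPM) and its target Asns (599 and 597 CPM) were level. Nupr1, at -0.70, and Ddit4 were called lower in this list. Of 24 p53 targets Ddit4 and Pmaip1, which promotes apoptosis, were called lower, Pmaip1 with 11.2 and 5.82 CPM and a log2 ratio of -0.94.

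**Figure D4:**
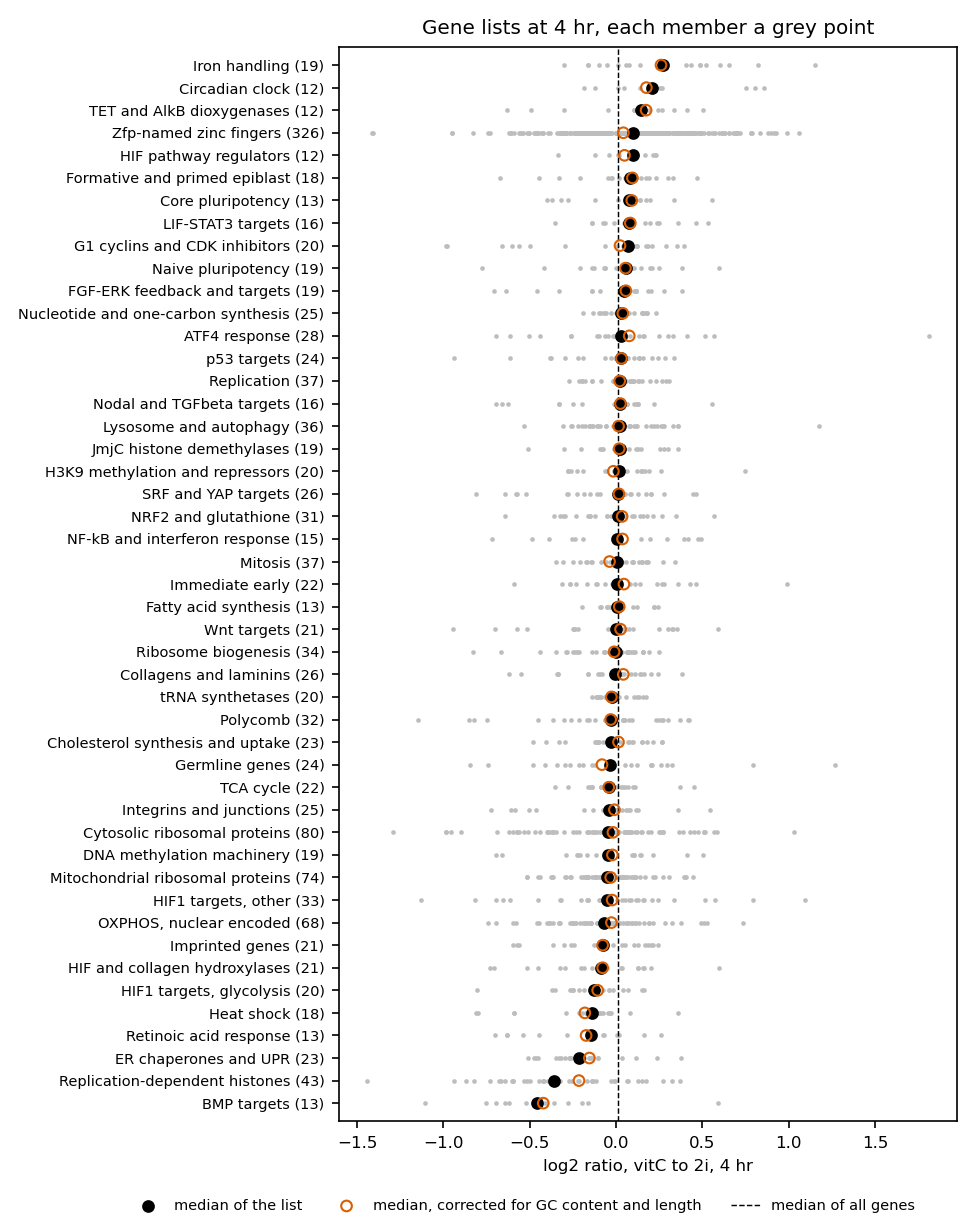
Log2 ratios of vitC to 2i at 4 hr (x axis) for each list with at least 10 genes past the filter (y axis, with the number of genes), where grey points are genes, black points are list medians, and open orange points are medians after the correction for GC content and length. Before the correction 5 medians lie at least 0.2 from 0, those of iron handling and the circadian clock above, and those of BMP targets, histones, and ER chaperones below, and 3 do so after it.

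Pluripotency genes were level. Pou5f1 had 505 and 465 CPM, a log2 ratio of -0.12, and Nanog had 395 and 437 CPM, a log2 ratio of 0.14. The 19 naive genes had a median of 0.06, the 13 core genes 0.08, and the 18 formative and primed genes 0.08. Dppa5a, an RNA-binding protein of naive ESCs, was called lower with 152 and 88.9 CPM and a log2 ratio of -0.77, and Tcl1, a coactivator of AKT, was called higher with 20.0 and 30.3 CPM and a log2 ratio of 0.60 (0.39 to 0.81). Of 21 listed 2-cell-like genes 3 passed and none was called.

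Genes of the DNA methylation machinery differed by less than 1.5-fold with 2 exceptions. The maintenance genes Dnmt1 (335 and 287 CPM) and Uhrf1 (409 and 401 CPM) had log2 ratios of -0.22 (-0.28 to -0.16) and -0.03 (-0.08 to 0.02). The de novo methylase genes Dnmt3a (84.2 and 72.8 CPM) and Dnmt3b (295 and 327 CPM) had log2 ratios of -0.21 and 0.15, and their cofactor Dnmt3l had 123 and 119.5 CPM, a log2 ratio of -0.05. Mbd3, a subunit of the NuRD complex, had 107 and 66.3 CPM, and Gadd45a had 25.5 and 16.2 CPM. Both were called lower, at -0.70 and -0.66, although Mbd3 was not after the correction (-0.58). Gadd45a shares 19.1% of its exon bases with another gene. The germ cell genes, whose promoters are often silenced by methylation, had a median of -0.04 over 24 genes. Sycp1 (33 and 62 counts) and Tdrd1 (34 and 46 counts) were called higher, Tdrkh and Tex11 lower. Tdrkh shares 36.7% of its exon bases with another gene. Dazl had 26.7 and 20.1 CPM, a log2 ratio of -0.41 (-0.63 to -0.19). Of 21 imprinted genes only H19, a maternally expressed noncoding RNA, was called, with a log2 ratio of -0.60. It was not called with library totals (-0.55) or after the correction (-0.52).

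Among chromatin repressors Atf7ip was the only called gene of 20. It encodes the cofactor of the H3K9 methyltransferase SETDB1, and had 374 counts in 2i and 490 with vitC, or 21.8 and 36.6 CPM, a log2 ratio of 0.75 (0.55 to 0.95). It was called higher at every later time as well, at 1.66, 1.64, and 1.5. Of 32 Polycomb genes 4 (12.5%) were called lower and none higher, all of them low in level. Among them, Cbx8 had 3.14 and 1.42 CPM, Ring1 had 13.7 and 7.61 CPM, and Phf1 had 4.89 and 2.76 CPM. Their log2 ratios were -1.15, -0.85, and -0.82, and the median of the list was -0.03. Phf1 shares 39.3% of its exon bases with another gene, so some of its reads may belong elsewhere.

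Zfp-named zinc finger genes, many of which repress transposons, were the largest list. Of 326 genes 24 (7.36%) were called higher and 11 (3.37%) lower, and the median of 0.10 became 0.04 after the correction. These genes are poor in GC, with a median of 43.7%. Zfp385a had 32 and 52 counts and Zfp951 had 81 and 103 counts, with log2 ratios of 1.06 and 0.71, and both were called higher at all 4 times. Zfp14 (65 and 19 counts) and Zfp709 (75 and 22 counts) were lowest, at -1.42 and -1.41.

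Adhesion and matrix lists stayed near 0. The 26 collagens and laminins had a median of -0.01 with Col6a2 alone called lower (-0.62, and -0.58 without a call with library totals), and the 25 integrin and junction genes had a median of -0.04 with 3 called lower. Among these 3, the epithelial keratin Krt18 had 761 and 506 CPM, a log2 ratio of -0.59 (-0.63 to -0.55), Cldn3 had -0.73, and Itgb3 had -0.61. Krt18 and Itgb3 were not called with library totals (-0.54 and -0.56), and Krt18 and Cldn3 were not after the correction (-0.47 and -0.57). With the 2i library thinned Itgb3 was not called either (-0.54). In the 36 lysosome and autophagy genes only Naglu was called, higher, on 34 and 60 counts.

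The protein-coding genes that differed most at a mean of 10 CPM or above belonged to no single list. Tctn3, a protein of the ciliary transition zone, had 143 and 274 counts, a log2 ratio of 1.30 (1.00 to 1.60). Behind it stood Mup6 (0.97), the esterase gene Bche (0.96), Chic1 (0.92), and Vash2 (0.90), followed by Pom121, Capza1, Lipt2, Oaz1, and AI987944, from 0.87 to 0.83. On the other side Hist1h4a was followed by Gm2000 (-1.42), the myosin gene Myh13 (-1.23), the zinc transporter gene Slc39a7 (-1.05), Krt7 (-1.04), and Eml1 (-1.02), and by Ccdc124, Rpl18, Pabpn1, and Ppfia4, from -0.99 to -0.94. Of the exon bases of Slc39a7 80.7% are shared with another gene, and Mup6 belongs to a family of near-identical copies, so reads of both are uncertain. For Pabpn1 the shared part is 21.45%.

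The calls at 4 hr were followed in the later pairs, each from libraries of its own. Of the 493 genes higher at 4 hr, 263, 276, and 286 (53.3%, 56.0%, and 58.0%) had a ratio above 1 at 16, 24, and 32 hr, beside 47.2%, 47.7%, and 49.8% of all genes. Of the 638 lower genes, 302, 360, and 319 (47.3%, 56.4%, and 50.0%) had a ratio below 1, beside 52.8%, 52.3%, and 50.2%. The higher genes had medians of 0.06, 0.13, and 0.13 later, and the lower genes 0.05, -0.09, and 0.00, next to medians of 0.80 and -0.79 at 4 hr, where they were chosen. The later medians were thus much nearer to 0.

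**Figure D5:**
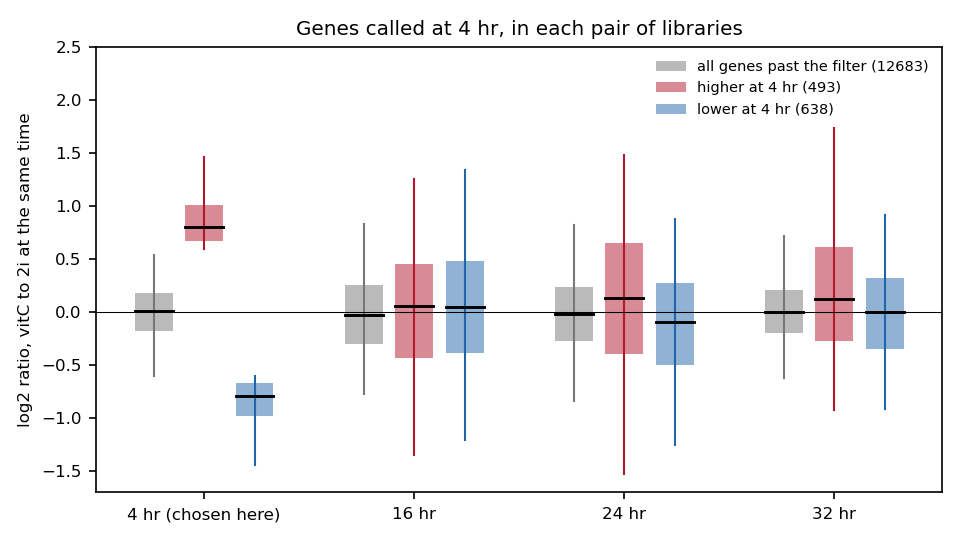
Log2 ratio of vitC to 2i (y axis) in each of the 4 pairs of libraries (x axis) for all 12683 genes (grey), the 493 genes higher at 4 hr (red), and the 638 lower at 4 hr (blue), with boxes from the first to the third quartile, lines from the 5th to the 95th percentile, and black bars at the medians. The groups are apart at 4 hr by choice, and at 16, 24, and 32 hr their boxes overlap, with medians between -0.09 and 0.13.

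A few genes were called in the same direction in every pair. There were 23 such genes among the 493 higher and 10 among the 638 lower. Besides Atf7ip, the higher genes included C130073F10Rik (1.23 at 4 hr, then 2.02, 2.25, and 1.84), the Wnt effector gene Tcf7l2 (47 and 82 counts, 1.16, then 1.34, 1.63, and 0.94), the BMP and activin receptor gene Acvr1 (49 and 68 counts, 0.83, then 0.92, 0.94, and 0.88), and Sall3 (1.03, then 0.97, 0.82, and 1.47). Besides Narf and the 3 histone genes, the lower genes included the ligand gene Wnt11, with 119 and 47 counts, a log2 ratio of -0.98 (-1.50 to -0.48), and later ratios of -1.84, -1.22, and -1.16. These examples were named after their values were seen. Called or not, 127 of the 493 higher genes (25.76%) had a ratio above 1 at all 3 later times, beside 19.35% of all genes. Of the 638 lower genes, 121 (18.97%) had a ratio below 1 at all 3, beside 21.71% of all genes. As a group the lower genes thus did not keep their side more often than all genes. Calls in the opposite direction at all 3 later times were made for 1 higher gene, Tcl1 (later -0.99, -0.98, and -1.03), and for 5 lower genes, among them Susd2, with 111 and 34 counts at 4 hr, a log2 ratio of -1.35, and later ratios of 0.73, 0.69, and 0.74.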

How the data were processed

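RNA was depleted of ribosomal RNA and read as 50-base single ends with a kit that does not mark strand. The authors deposited counts of reads per Ensembl gene, unnormalized, for each library, made with HTSeq (the submitters' processing notes also name GSNAP and the builds NCBIM37 and mm9). Annotation and strand settings are not given in the sources used here. Symbols, biotypes, exon lengths, and GC content came from GENCODE M21 (32604 identifiers matched), promoters from RefSeq. The 57 gene lists and the rule for named genes were written with earlier results of these data known.

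TMM factors (edgeR 4.0.16, R 4.3.3) were computed over all 8 libraries on 14931 genes that reached 1 CPM in 2 or more of them, and were 0.987 for 2i and 1.02 for vitC at 4 hr. The ratio of scaled counts was given an exact (Clopper-Pearson) conditional binomial 95% interval (scipy 1.17.1). The interval and the call rule were tried on simulated Poisson counts with known ratios. Such counts hold no spread between libraries beyond counting, so this trial bears on counting error only. A count of 3, taken as the floor, is 0.172 CPM in 2i and 0.228 CPM with vitC. Intervals and floors cover counting error only. The correction for GC content and length was a spline fit with 5 knots. Alternatives were library totals, factors from the 2 libraries alone, DESeq2 1.42.0 size factors, upper quartiles, filters of 1 CPM, 10 CPM, and none, other folds, a 99% interval, a 2i library thinned to the depth of vitC, and protein-coding genes only, the last chosen after seeing the data. Named were the 10 protein-coding genes at each end with a mean of at least 10 CPM, up to 4 called members of each list, and a fixed set of vitC, HIF, methylation, and pluripotency genes. Some genes under this rule are not reported here, and other list members that were not called, such as Gsto1, Pdk1, Id1, and Hspa5, were named after their values were seen.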

Additional observations from a re-analysis of the deposited data

Results flagged for a closer look

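For 3 of the genes named by rule, the counting interval lay wholly on one side of 0 at 4 hr and wholly on the other side at every later time. The difference between the times was not tested. Other named genes, such as Chac1, Ciart, and Slc39a14, changed side as well, but with an interval that includes 0 at 1 or more of the times. Tcl1 had a log2 ratio of 0.60 at 4 hr and of -0.99, -0.98, and -1.03 at 16, 24, and 32 hr. Dazl, a germ cell gene, had -0.41 at 4 hr and 0.80, 1.45, and 1.01 later. Lars2, the mitochondrial leucyl-tRNA synthetase gene, had -0.27 at 4 hr, from 611 and 396 counts, and 6.60, 1.13, and 2.46 later, where it took as much as 2.01% of a library. In 2i without vitC its share was 0.016% at 16 hr and 0.921% at 24 hr. Whether these reads come from Lars2 mRNA was not tested.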

How the results depend on the processing

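The numbers of called genes moved with the filter and the fold. With a filter of 10 CPM there were 106 higher and 182 lower genes, without a filter 1231 and 1303, at 2-fold 130 and 145, and at the lowest fold tried 1265 and 1477. Under the other scalings, the 1 CPM filter, the thinned library, the 99% interval, and the GC and length correction (504 and 537) both counts stayed within 1.5 times of 493 and 638, and with protein-coding genes only they were 398 and 481. With the correction 3 list medians, in place of 5, lay at least 0.2 from 0. The ER chaperone median was -0.17 with library totals and -0.15 with the correction, and the histone median -0.31 and -0.21. Of the 103 named genes that were called, 89 kept their call with library totals, 89 with the correction, 94 with the thinned library, and 21 at 2-fold, and none changed sign. With 1 library a group, no library could be left out. No paired analysis was possible because the result comes from no test and each group holds 1 replicate number. Genes near the filter of 2 CPM rest on few counts, and a difference under 1.5-fold is often not detectable there.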
